A study of Mus musculus with 27 samples.

Results

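Clone gs1_B11 is a Fis1 knockout made with CRISPR-Cas9 in the mouse mammary carcinoma line 4T1. It was compared here with parental 4T1 cells over all genes. Its members are the 3 libraries whose column names carry the code of this clone. They are 3 of the 27 libraries of the series, and they were set against 3 libraries of parental cells, which the labels give as wild type. The whole study holds the parental cells, 6 knockout clones (2 each for Drp1, Fis1 and Mff) and cells kept for 3 days with leflunomide or DMSO. RNA was polyadenylated RNA from cultured cells, and the labels give no treatment for the parental or knockout groups. The other Fis1 clone, gs2_F6, was used here as a second reference.

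Mitochondria in most cells divide and fuse continuously. Division is carried out by the GTPase DRP1 (gene Dnm1l), which is brought to the outer mitochondrial membrane by adaptors such as MFF, MIEF1 and MIEF2. FIS1 is a small tail-anchored protein of the outer membrane that is found on mitochondria and peroxisomes and has been linked to division, to mitophagy and to peroxisome number. Fusion depends on the mitofusins MFN1 and MFN2 in the outer membrane and on OPA1 in the inner membrane, and OMA1 cleaves OPA1 under stress.

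Several features limit gs1_B11 as a model of Fis1 loss. It is a single clone, and the labels do not describe the parental cells as a clone, so effects of the deletion and features of the founder cell cannot be told apart from this comparison. Which of the clone numbers used in the sample titles matches the code gs1_B11 is not stated in the labels. Whether replicate libraries came from separate cultures is not said in the labels. The p-values reflect the spread among replicate libraries, estimated jointly over the 21 parental and knockout libraries, and that spread may be technical. Library totals ran from 20715396 to 24753785 counts in parental cells and from 22770904 to 27390891 in gs1_B11. Replicate 1 of gs1_B11 stood apart with 6.40% of its counts on ribosomal RNA genes, against 2.56% and 2.99% in replicates 2 and 3 of the clone and 2.16% to 2.65% in parental cells. Leaving it out changed no count of calls over all genes (against parental cells, against gs2_F6, or set apart from all other groups) by more than 1.5 times. Levels are given as CPM, which are counts scaled to a common normalised library total. Of 12 mammary epithelial carcinoma markers, all but Krt5 had counts in both groups. Their summed level was 3871.8 to 3986.5 CPM in parental libraries and 4547.1 to 4898.9 CPM in gs1_B11. Summed fibroblast markers reached at most 5.05 CPM, leukocyte markers 21.1 CPM and endothelial markers 0.525 CPM in any of the 6 libraries. Among them Col3a1, Pdgfrb, Dcn, Adgre1, Cd3e, Kdr and Vwf had 0 counts in all 6.

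Fis1 mRNA was lowered and not lost. The parental libraries held 44.6, 45.5 and 52.5 CPM and the gs1_B11 libraries 21.7, 20.8 and 20.7 CPM, so the groups did not overlap. The level in the clone was 44.3% of parental (log2 fold change -1.17 ± 0.09 (SE), adjusted p = 2e-09). In gs2_F6 the level was 16.3, 18.7 and 16.4 CPM, and the difference between the 2 Fis1 clones was a log2 difference of 0.29 (adjusted p = 0.014). The other 4 clones had means between 51.9 and 59.4 CPM. Gene counts do not show the edit itself, and protein was not measured.

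Many genes differed between gs1_B11 and parental cells, and most by little. Of 13941 genes tested, 6592 passed an adjusted p of 0.05 in edgeR's quasi-likelihood test, 47.3% of those tested. The genes that rose numbered 2977 (21.4%) and those that fell 3615 (25.9%). The median absolute log2 fold change of the genes called was 0.4, and the median over all tested genes was -0.01. At least 2-fold differences were found for 383 higher genes (2.75% of those tested) and 624 lower genes (4.48%). These shares are the background against which each group of genes below is read.

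**Figure D1:**
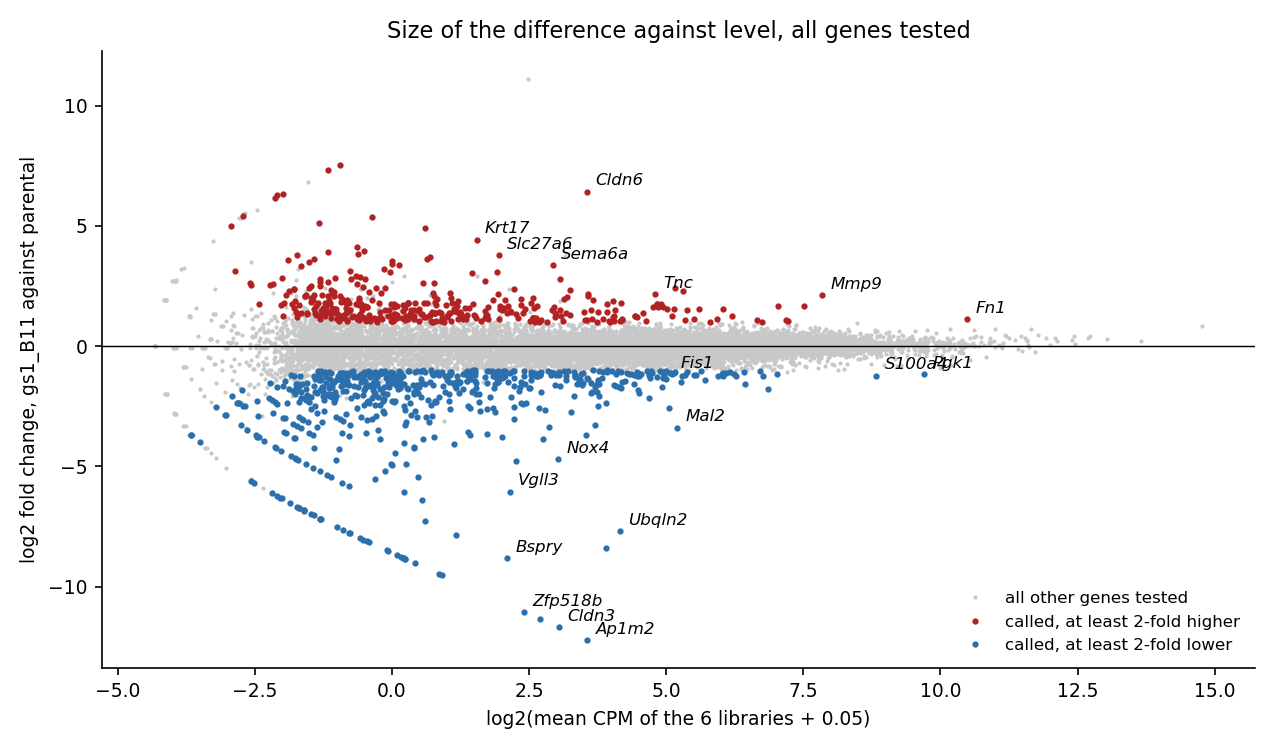
Each point is a tested gene: the x axis is the log2 mean level over the 3 parental and 3 gs1_B11 libraries, and the y axis is the fitted log2 fold change of gs1_B11 against parental. Points in colour passed the test with at least a 2-fold difference (383 higher, 624 lower); the diagonal runs of points at the left are genes with few or no counts in 1 group, whose fold is set by the fit and is no bound.

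The differences were unevenly placed among the chromosomes. Female mammalian cells keep a single X chromosome active, and carcinoma lines in culture often carry gained and lost chromosome segments, which shift the expression of many neighbouring genes together. On the X chromosome 296 of 421 tested genes fell in gs1_B11 (70.3%) and 13 rose (3.09%), with a median log2 fold change of -0.73, or 60.3% of the parental level. The X median in each gs1_B11 library, as a difference from the parental mean, was -0.68, -0.69 and -0.62, and in the parental libraries it lay between -0.01 and 0.01. The groups did not overlap (exact permutation test, two-sided, p = 0.1, the smallest that 3 against 3 libraries can give). Chromosomes 4, 6 and 7, with medians of -0.02, -0.02 and 0.03, gave the same p without overlap, so this result does not set X apart. X genes made up 84 of the 624 genes at least 2-fold lower (13.5%), while X holds 3.02% of the genes tested.

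Chromosomes 2, 3 and 8 were shifted the same way by a smaller amount. Their medians were -0.23, -0.24 and -0.27, and 51.6%, 51.9% and 57.1% of their tested genes fell. Together with X these chromosomes held 2951 tested genes, of which 55.7% fell, against 17.9% of genes elsewhere. Chromosomes 18 and 14 were shifted upward, with medians of 0.33 and 0.23 and with 57.9% and 48.8% of genes higher. Chromosomes 1 and 17 each had a median of 0.12. The medians of the remaining autosomes lay between -0.05 and 0.05. For X, 2, 3, 8, 14 and 18 the 3 libraries of the clone agreed to within 0.07. None overlapped with a parental library, which also held for most chromosomes with medians near 0, as the plot by chromosome shows.

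**Figure D2:**
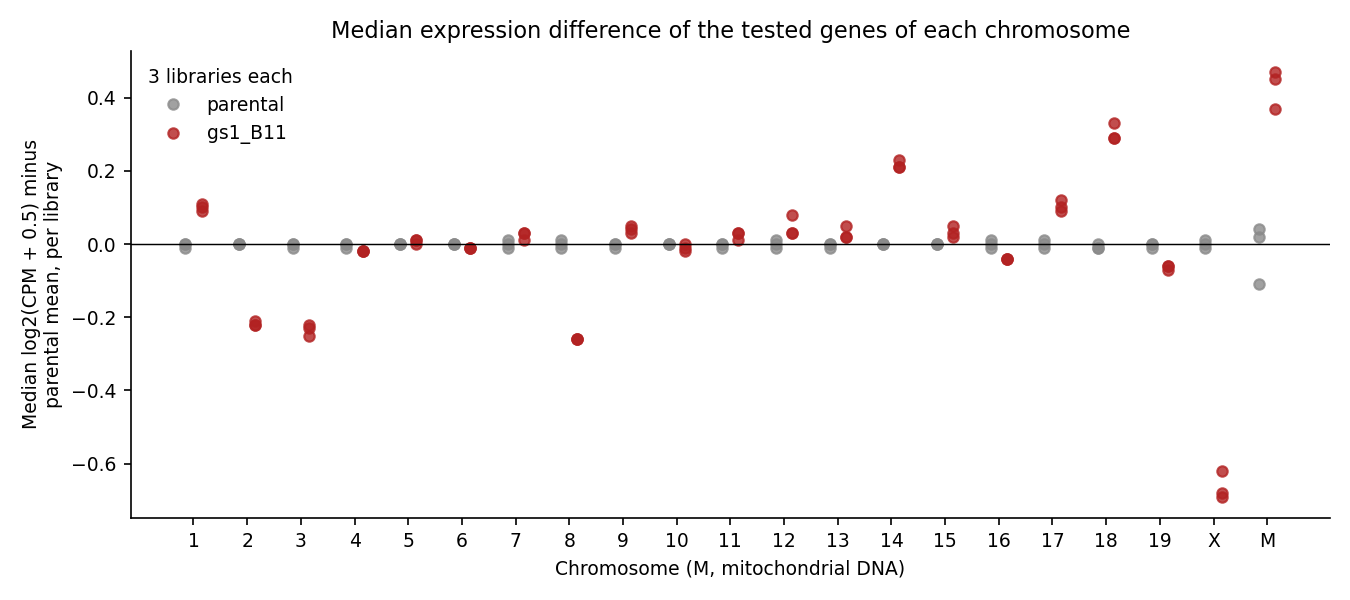
Median difference from the parental mean, on the log2(CPM + 0.5) scale, over the tested genes of each chromosome, with 1 point per library (grey parental, red gs1_B11). The red points for X lie at -0.69 to -0.62 and those for chromosome 18 at 0.29 to 0.33, while grey points lie near 0 except for mitochondrial DNA (M), which has 20 tested genes.

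The other clones, compared with the same parental libraries, differed from each other and shared some of these shifts. The X median was 0.04 in gs2_F6, -0.09 in gs1_C8, -0.23 in gs1B8, -0.50 in gs2_B4 and -0.72 in gs1_B4. The chromosome 2 median was -0.23 in gs1_B11, -0.19 in gs2_B4 and -0.05 in gs1B8. It was 0.13 in gs2_F6, 0.10 in gs1_B4 and 0.08 in gs1_C8. That of chromosome 3 was -0.24 in gs1_B11, -0.30 in gs1_C8 and -0.16 in gs2_B4, and between -0.01 and 0.06 in gs2_F6, gs1B8 and gs1_B4. Chromosome 14 was also raised in gs2_F6 (0.15), gs1B8 (0.16), gs2_B4 (0.26) and gs1_C8 (0.15), and was at -0.22 in gs1_B4. Chromosome 18 was at 0.20 in gs2_F6 and between -0.06 and 0.07 in the other 4 clones. Chromosome 8 was low in both Fis1 clones, at -0.29 in gs2_F6, and it lay between -0.57 and -0.24 in the other 4 clones. The number of chromosome copies was not measured, and its part in these shifts was not tested.

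Consecutive blocks of 25 tested genes placed some shifts within chromosomes. All 16 blocks of X had medians between -0.90 and -0.32, from chrX:6399854-170019281 (GRCm38), the span of the tested genes. On chromosome 14 a stretch at chr14:45376334-61240695 held 150 tested genes with a median of 0.42, of which 94 rose and 6 fell. On chromosome 9 the middle lay above both ends: the stretches chr9:67022590-77546467 and chr9:83390293-92492456 had medians of 0.33 and 0.37, while the lowest block of that chromosome had a median of -0.28. The middle lay above both ends in gs2_F6 too. There the first of these stretches had a median of -0.07, the first block of the chromosome -0.39 and the last block -0.36. The last block of chromosome 6, chr6:143167221-149563329, had 39 tested genes with a median of -0.59, of which 26 fell and 2 rose. In gs2_F6 the median of that block was -0.14. The last block of chromosome 10, chr10:128015168-130571793, had a median of -0.35, with 32 of 45 genes lower. A further stretch differed between libraries of the clone: chr13:21442180-23752886, with 50 tested genes, had a median of 0.64, but its library values were 0.73 in replicate 1 and 0.04 and 0.27 in replicates 2 and 3. A block of chromosome 3, chr3:96172332-96633791, also stood highest in replicate 1, at 0.35, against -0.27 and -0.16 in replicates 2 and 3. Replicate 1 was the library with 6.40% of its counts on ribosomal RNA genes. A link between that share and these values was not tested.

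**Figure D3:**
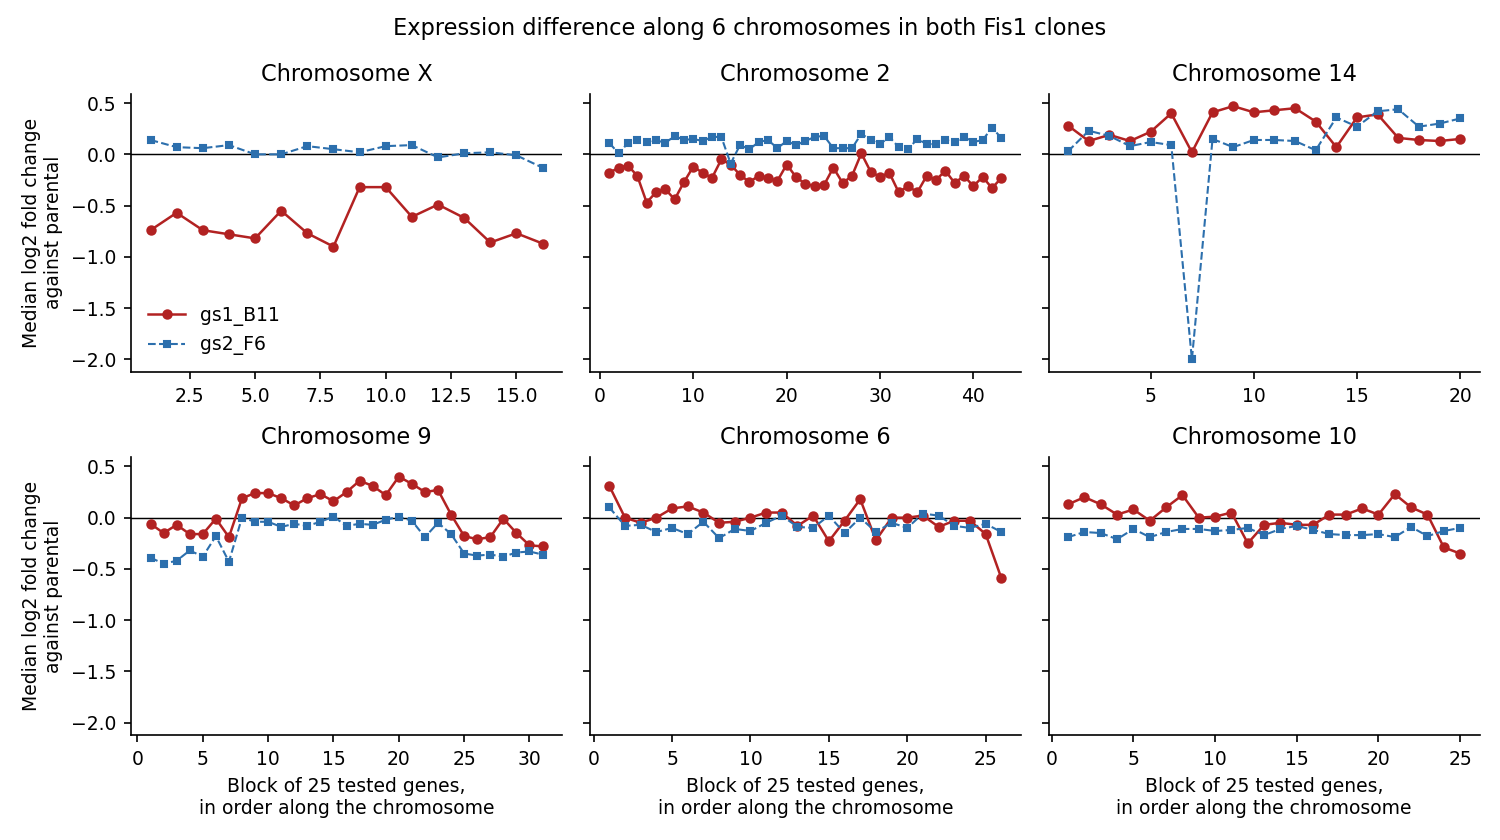
Median log2 fold change against parental in consecutive blocks of 25 tested genes along 6 chromosomes (x axis: block number in gene order), in gs1_B11 (red circles) and gs2_F6 (blue squares). In gs1_B11 the whole of X is below -0.30, the middle of chromosome 9 and of chromosome 14 is raised, and the last blocks of chromosomes 6 and 10 drop; 1 block of chromosome 14 lies at -2.00 in gs2_F6 and at 0.02 in gs1_B11. The middle of chromosome 9 lies above its ends in gs2_F6 too.

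The 3 genes of the chromosome 6 block given next fell by more than its median, and were chosen after their values were seen except for Etfrf1. Arntl2, a clock transcription factor, fell from 16.4, 16 and 15.9 CPM to 3.86, 3.71 and 3.77 CPM (log2 fold change -2.09 ± 0.07 (SE), adjusted p = 4.8e-14). Tm7sf3 was at 16.7, 14.6 and 14.9 CPM in parental cells and 5.56, 5.70 and 5.68 CPM in the clone (log2 fold change -1.45 ± 0.08 (SE), adjusted p = 6.1e-11). Both genes were lower in every gs1_B11 library than in any parental library. Etfrf1, a regulator of the electron transfer flavoprotein, went from 7.02, 6.09 and 8.10 CPM to 2.12, 2.44 and 2.14 CPM (log2 fold change -1.65 ± 0.12 (SE), adjusted p = 9e-10).

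Among genes at 5 CPM or more in parental cells, 4 had 0 counts in all 3 libraries of the clone: Ap1m2, Cldn3, Cldn7 and Zfp518b. Ap1m2 encodes the medium chain of the epithelial AP-1B adaptor, which sorts proteins to the basolateral membrane, and Cldn3 and Cldn7 are claudins of tight junctions. Their promoters are shown because these are the expressed genes with no transcript counted in the clone. Each run is the 250 bases before the RefSeq start site (table build GRCm38.p6), 5′ to 3′ on the gene's strand. Capitals mark CACCTG on the strand shown or, as CAGGTG, on the other; this is a core form of the E-box bound by ZEB and SNAI repressors, and no other motif was searched.
Ap1m2 (chr9:21312334-21312583, minus strand): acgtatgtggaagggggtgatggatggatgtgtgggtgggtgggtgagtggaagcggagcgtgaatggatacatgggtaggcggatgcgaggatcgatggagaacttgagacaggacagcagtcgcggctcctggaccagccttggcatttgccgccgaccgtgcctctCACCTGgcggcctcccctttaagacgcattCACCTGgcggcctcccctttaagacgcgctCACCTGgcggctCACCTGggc
Cldn3 (chr5:134985964-134986213, plus strand): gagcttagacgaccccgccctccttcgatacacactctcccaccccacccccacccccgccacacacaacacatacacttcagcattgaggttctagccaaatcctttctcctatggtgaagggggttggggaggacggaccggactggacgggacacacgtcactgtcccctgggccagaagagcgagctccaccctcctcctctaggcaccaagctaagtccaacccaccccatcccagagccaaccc
Cldn7 (chr11:69964529-69964778, plus strand): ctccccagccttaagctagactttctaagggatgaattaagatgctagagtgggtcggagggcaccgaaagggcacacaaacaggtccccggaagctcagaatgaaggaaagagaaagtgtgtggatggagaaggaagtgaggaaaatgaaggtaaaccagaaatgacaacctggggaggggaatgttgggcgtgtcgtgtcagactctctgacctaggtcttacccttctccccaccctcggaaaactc
Zfp518b (chr5:38684827-38685076, minus strand): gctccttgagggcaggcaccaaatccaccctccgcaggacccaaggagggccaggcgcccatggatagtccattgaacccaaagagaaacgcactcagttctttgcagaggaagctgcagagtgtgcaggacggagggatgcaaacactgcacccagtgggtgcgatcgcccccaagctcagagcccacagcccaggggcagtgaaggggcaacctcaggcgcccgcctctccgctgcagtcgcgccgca
The Ap1m2 window held CACCTG 4 times, starting 81, 51, 21 and 9 bases before the start site. The Cldn3, Cldn7 and Zfp518b windows held none. Of 32851 promoters of the same length, 17.2% held the motif at least once and 0.043% at least 4 times. CG dinucleotides numbered 17 in the Ap1m2 window, 9 in Cldn3, 6 in Cldn7 and 12 in Zfp518b, against a median of 6 over all promoters. DNA methylation and factor binding were not measured.

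Ap1m2 was at 25.9, 21.6 and 23 CPM in the parental libraries and had 0 counts in each gs1_B11 library. Taking 3 counts over the group as the floor, it was at least 558-fold lower. Cldn3 was at 14.7, 17.6 and 16.8 CPM in parental cells and at least 392-fold lower in the clone. Cldn7, at 13.1, 12.8 and 12.6 CPM, was at least 307-fold lower, and Zfp518b, a zinc finger protein, at 10.2, 10.4 and 11.1 CPM, at least 252-fold. All 4 passed the test, with adjusted p of 5.3e-13, 1.8e-08, 3.3e-08 and 1.1e-11. None of these losses was seen in gs1_B11 alone. Cldn3 and Cldn7 had means of at most 0.0121 and 0.0120 CPM in each of the other 5 clones. Ap1m2 was at 0.0138 CPM in gs2_F6 but stood at 16.6 CPM in gs1_B4 and 53.2 CPM in gs1_C8. Zfp518b was at 0 in gs2_F6 and at 33.2 CPM in gs2_B4 and 16 CPM in gs1_C8.

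Further genes fell to a trace. Bspry, a B-box and SPRY domain protein of epithelial cells, was at 9.14, 8.06 and 8.29 CPM in parental cells and had a single count in the 3 libraries of the clone (a ratio of 607 with a 95% counting interval of 108 to 24024, adjusted p = 7.4e-12). Ubqln2, an X-linked ubiquilin that hands proteins to the proteasome, fell from 38.4, 36 and 32 CPM to 0.0424, 0.225 and 0.233 CPM (log2 fold change -7.69 ± 0.23 (SE), adjusted p = 1.1e-14). Its level in gs2_F6 was 44.2, 41.1 and 49.7 CPM, so the Fis1 clones stood far apart, and the fold is larger than the X median. Vgll3, a cofactor of TEAD factors, fell from 9.04, 9.10 and 7.74 CPM to 0.127, 0.0750 and 0.186 CPM (log2 fold change -6.05 ± 0.21 (SE), adjusted p = 3.8e-13). Nox4, an NADPH oxidase that makes hydrogen peroxide, went from 17.1, 16.4 and 13.5 CPM to 0.636, 0.563 and 0.605 CPM (log2 fold change -4.70 ± 0.18 (SE), adjusted p = 1.3e-13) and had 0.914, 0.554 and 0.512 CPM in gs2_F6. Tubb2b, a beta-tubulin with near-identical relatives whose counts are therefore uncertain, had a log2 fold change of -4.75 ± 0.19 (SE).

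Other large losses kept a measurable level. Mal2, a transport protein of the apical membrane, was at 75.1, 66.6 and 58.5 CPM in parental cells and 7.72, 5.93 and 5.44 CPM in the clone (log2 fold change -3.39 ± 0.12 (SE), adjusted p = 3.3e-14). Its level was lower still in gs2_F6, at 0.208, 0.0326 and 0 CPM. Eml1, a microtubule-associated protein, fell from 16.8, 11.4 and 11.1 CPM to 1.53, 1.24 and 1.07 CPM (log2 fold change -3.35 ± 0.18 (SE), adjusted p = 2.1e-11), and was at 12, 13.4 and 10.2 CPM in gs2_F6. Amot, an X-linked angiomotin that binds YAP, fell from 14.1, 12.5 and 10.7 CPM to 0.891, 0.713 and 1.02 CPM (log2 fold change -3.84 ± 0.16 (SE), adjusted p = 5.4e-13). The transcription factor Sox13 had a log2 fold change of -3.75 ± 0.24 (SE), and Shfl, an antiviral RNA-binding factor, of -3.66 ± 0.18. In all of these the highest gs1_B11 library was below the lowest parental library.

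**Figure D4:**
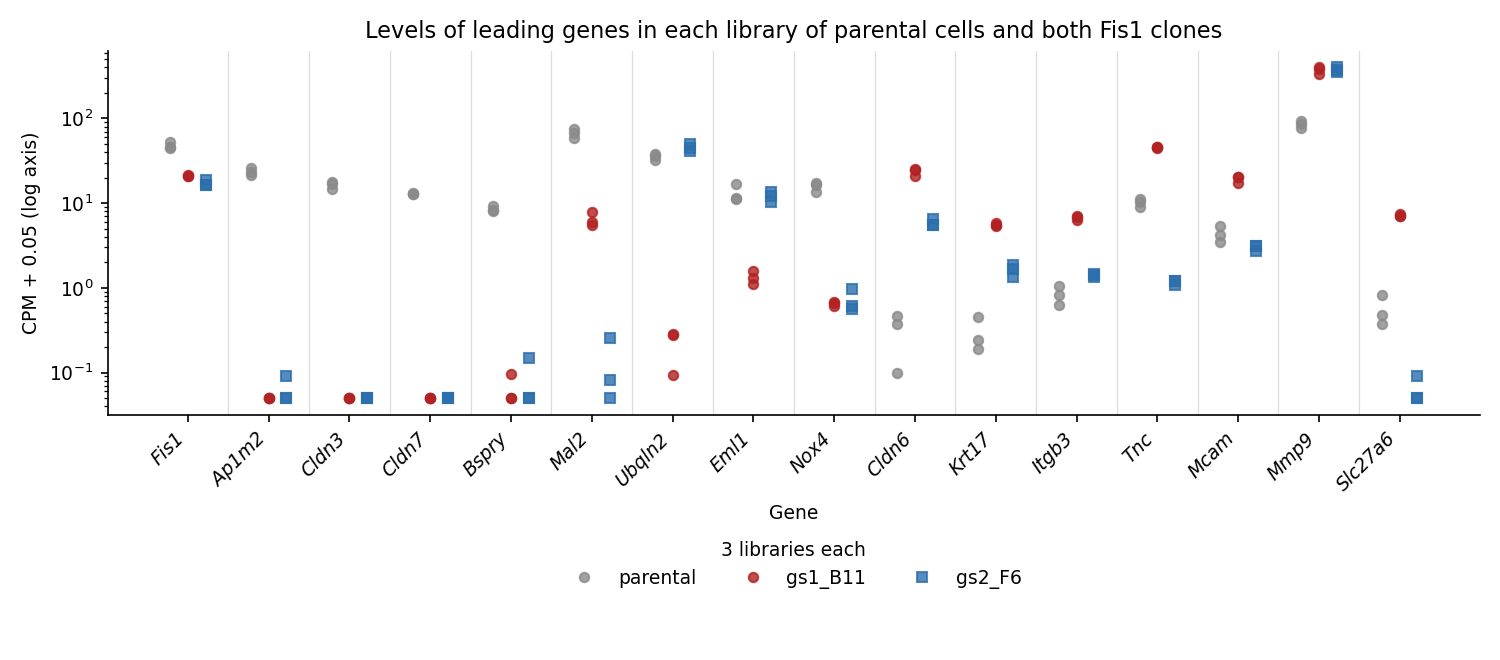
Levels of 16 genes in each library (CPM + 0.05, log axis) for parental cells (grey), gs1_B11 (red) and gs2_F6 (blue), 3 points each. Ap1m2, Cldn3 and Cldn7 are at 0 CPM in gs1_B11; Ubqln2 and Eml1 are low in gs1_B11 only among these 3 groups, while Tnc and Slc27a6 are above parental in gs1_B11 and below it in gs2_F6.

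The gains described next are those with the largest fold among called genes at 5 CPM or more in 1 group. A single gene, annotated as a processed pseudogene, had 0 counts in parental cells and a mean of at least 5 CPM in the clone; its counts lay in 1 library and it did not pass the test (adjusted p = 0.11). Cldn6, a claudin of embryonic epithelia, was at 0.0481, 0.321 and 0.414 CPM in the parental libraries and 24.9, 24.3 and 20.7 CPM in gs1_B11 (log2 fold change 6.42 ± 0.20 (SE), adjusted p = 1.1e-14). In gs2_F6 it reached 5.53, 6.39 and 5.50 CPM. Krt17, a keratin of stressed and basal epithelium, rose from 0.192, 0.401 and 0.138 CPM to 5.81, 5.40 and 5.26 CPM (log2 fold change 4.43 ± 0.31 (SE), adjusted p = 7.8e-10). Slc27a6, a fatty acid transporter, went from 0.433, 0.762 and 0.322 CPM to 6.96, 7.01 and 7.45 CPM (log2 fold change 3.78 ± 0.32 (SE), adjusted p = 9.3e-09). Sema6a, a transmembrane semaphorin, rose from 0.962, 1.76 and 1.24 CPM to 12.6, 12.2 and 16.6 CPM (log2 fold change 3.36 ± 0.24 (SE), adjusted p = 1.2e-09). No parental library reached the lowest gs1_B11 library for any of the 4 genes.

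Gains at higher absolute level included secreted and surface proteins. Mmp9, the gelatinase that degrades basement membrane, was at 84.8, 94.2 and 77.1 CPM in parental cells and 386, 402 and 337 CPM in the clone (log2 fold change 2.13 ± 0.15 (SE), adjusted p = 7e-10), and at 371, 400.0 and 355 CPM in gs2_F6. Tnc, the matrix glycoprotein tenascin C, was at 10.3, 11.1 and 9.07 CPM against 46.1, 46.5 and 44.2 CPM (log2 fold change 2.16 ± 0.09 (SE), adjusted p = 3.2e-13). Tnfrsf26, a receptor of the TNF receptor family, rose from 9.62, 10.2 and 13.8 CPM to 52.6, 56.4 and 70.9 CPM (log2 fold change 2.42 ± 0.21 (SE), adjusted p = 1.6e-08). Mab21l4 had a log2 fold change of 2.31 ± 0.12 (SE), Mcam, an adhesion molecule of the immunoglobulin family, of 2.17 ± 0.17, and the kinase Dapk1 of 2.04 ± 0.11. Itgb3, Tpm2, Sgsm1, Arhgap28 and Cbr2 were at most 2.36 CPM in each parental library, and all had at least 5 CPM in each library of the clone.

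Of 16 tested genes of mitochondrial fission, 3 rose (18.8%) and 7 fell (43.8%), with a median of -0.09. The genes of DRP1 and of its adaptors MFF, MIEF1 and MIEF2 did not pass the test. The DRP1 gene Dnm1l was at 220.0, 217 and 226 CPM in parental cells and 199, 211 and 219.6 CPM in gs1_B11, overlapping in part (log2 fold change -0.07 ± 0.05, adjusted p = 0.22). Mff had a log2 fold change of 0.06 ± 0.06 (adjusted p = 0.39) and Mief2 of 0.06 ± 0.13 (adjusted p = 0.72). Mief1 was at 26.6, 27.4 and 25.1 CPM and 30.6, 30.3 and 30.2 CPM (0.20 ± 0.08, adjusted p = 0.051). Besides Fis1, members that fell at least 2-fold were Mtfp1 and Fundc2. Mtfp1, a fission protein of the inner membrane, chosen after its values were seen, fell from 2.36, 2.08 and 2.53 CPM to 0.933, 0.788 and 0.745 CPM (log2 fold change -1.49 ± 0.21 (SE), adjusted p = 7.5e-06), and was at 0.665, 0.619 and 0.384 CPM in gs2_F6. Fundc2, an X-linked relative of a mitophagy receptor, fell from 86.5, 88.1 and 93.8 CPM to 41.7, 42.5 and 41.4 CPM (log2 fold change -1.09 ± 0.05 (SE), adjusted p = 2.2e-12). Its value after the X median was taken off was -0.37. The formin Inf2, which polymerises actin at division sites, rose by 0.41 ± 0.09 on the log2 scale, and Slc25a46 and Spire1, both on chromosome 18, rose by 0.31 and 0.30, just under the median of that chromosome. Mief1 passed the threshold under 6 of the 12 other settings tried.

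Among 18 tested fusion and cristae genes 1 rose and 4 fell, with a median of -0.07. Mfn1 fell from 74.7, 77.7 and 78.2 CPM to 55.2, 59 and 57.1 CPM (log2 fold change -0.43 ± 0.04 (SE), adjusted p = 5.2e-08), and the groups did not overlap. Opa1 fell from 158, 153 and 148 CPM to 131, 126 and 134 CPM (log2 fold change -0.23 ± 0.04 (SE), adjusted p = 0.00011). In gs2_F6 their log2 fold changes were 0.04 and 0.08, and neither passed the test. The differences of gs1_B11 from gs2_F6 did pass it, at -0.47 (adjusted p = 1e-08) for Mfn1 and -0.31 (adjusted p = 2.9e-06) for Opa1. Mfn2 had a log2 fold change of -0.06 ± 0.06 (adjusted p = 0.4) and Oma1 of -0.21 ± 0.09 (adjusted p = 0.074). The cristae genes split: Chchd6 fell by 0.82 and the X-linked Apoo fell by 0.49 on the log2 scale, while Immt, the core of the MICOS complex, rose from 219, 203 and 216 CPM to 249, 254 and 262 CPM (log2 fold change 0.26 ± 0.04 (SE), adjusted p = 5.8e-06). Mfn1 lies on chromosome 3, and with the median of that chromosome taken off its value was -0.19.

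The mitophagy and peroxisome lists held more lower than higher genes, as did all genes tested (25.9% lower and 21.4% higher). Of 37 tested mitophagy, autophagy and lysosome genes 9 rose (24.3%) and 17 fell (45.9%), with a median of -0.19. On chromosomes 2, 3, 8 and X 9 of 11 fell, and elsewhere 8 of 26. Bnip3, a mitophagy receptor that hypoxia induces, fell from 15.9, 15.6 and 23.3 CPM to 6.45, 5.06 and 7.68 CPM (log2 fold change -1.52 ± 0.23 (SE), adjusted p = 2.2e-05). Members that rose included the receptors Bnip3l, from 116, 124 and 154 CPM to 152, 168 and 204 CPM (log2 fold change 0.41 ± 0.12 (SE), adjusted p = 0.0077), and Optn, from 20.9, 19 and 20.1 CPM to 25.1, 23.9 and 29.2 CPM (log2 fold change 0.38 ± 0.10 (SE), adjusted p = 0.0031). The Bnip3l groups overlapped and the Optn groups did not, and without gs1_B11 replicate 3 the log2 fold change of Bnip3l against parental was 0.30 (adjusted p = 0.055). Wipi2, which acts on forming autophagosomes, rose by 0.38 ± 0.06 and Tbc1d17 rose by 0.56 ± 0.11. The mitophagy receptor Fundc1 fell from 38.9, 38.8 and 41.5 CPM to 20.7, 18.6 and 19.5 CPM (log2 fold change -1.02 ± 0.07 (SE), adjusted p = 2.3e-10). Tfe3, a lysosomal transcription factor, and Lamp2, a lysosomal membrane protein, fell by 1.14 and 0.84 on the log2 scale. Fundc1, Tfe3 and Lamp2 are X-linked, with values of -0.29, -0.42 and -0.11 relative to the X median. Of 28 peroxisome genes 6 rose (21.4%) and 11 fell (39.3%), with a median of -0.14. On chromosomes 2, 3, 8 and X 5 of 10 fell, and elsewhere 6 of 18. Agps, an enzyme of ether lipid synthesis whose gene lies on chromosome 2, was at 237, 240.4 and 231 CPM in parental cells and 132, 131 and 142 CPM in the clone (log2 fold change -0.81 ± 0.06 (SE), adjusted p = 8.4e-10).

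Transcripts of mitochondrial DNA, whose reads can be shared with nuclear copies, were higher in gs1_B11. Of the 13 mRNAs encoded by mitochondrial DNA, 10 rose and none fell past the threshold, with a median of 0.43. At an unadjusted p below 0.05 none fell either by edgeR or by DESeq2. mt-Nd3, a complex I subunit, rose from 592, 492 and 653 CPM to 906, 934 and 858 CPM (log2 fold change 0.64 ± 0.16 (SE), adjusted p = 0.0024). mt-Atp6, a subunit of ATP synthase, was at 197, 136 and 218 CPM against 284, 345 and 274 CPM (log2 fold change 0.71 ± 0.22 (SE), adjusted p = 0.013), which did not pass without parental replicate 2 (0.55, adjusted p = 0.075) or gs1_B11 replicate 2 (0.60, adjusted p = 0.059). mt-Co3, chosen after its values were seen, had the opposite sign and a wide spread, with 100.3, 102 and 398 CPM in parental cells and 40.8, 67.4 and 178 CPM in the clone (-1.07 ± 0.64, adjusted p = 0.18). Without parental replicate 3 its value was -0.09, and without gs1_B11 replicate 3 it was -1.87 (adjusted p = 0.042). Mitochondrial mRNAs took 2.49% to 2.77% of all counts in parental libraries and 3.17% to 3.41% in gs1_B11. In gs2_F6 the median of the 13 was 0.31. Whether mitochondrial DNA content differed was not measured.

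Nuclear genes of the respiratory chain showed no common shift. Of 74 tested subunits 14 rose and 14 fell, the median was 0.00, and 10 of the 14 lower genes lay on chromosomes 2, 3, 8 or X. The complex I subunit Ndufa8, on chromosome 2, fell from 60.1, 62.3 and 65.7 CPM to 26.6, 29.8 and 26.7 CPM (log2 fold change -1.18 ± 0.06 (SE), adjusted p = 8e-12), well past its chromosome's median. The X-linked subunits Cox7b, Ndufb11 and Ndufa1 fell by 0.86, 0.79 and 0.76, close to the X median. Of 34 genes of the TCA cycle and fatty acid oxidation 13 rose and 11 fell (median 0.01). Pdk1, the kinase that switches off pyruvate dehydrogenase, fell from 36.6, 30.9 and 36.9 CPM to 10.4, 10.5 and 8.47 CPM (log2 fold change -1.82 ± 0.09 (SE), adjusted p = 9.1e-12), and Pdha1, the X-linked subunit of that dehydrogenase, fell from 281, 289 and 288 CPM to 152, 150.5 and 153 CPM (log2 fold change -0.91 ± 0.03 (SE), adjusted p = 1.5e-13). Of 20 glycolysis genes 3 rose and 7 fell (median -0.11). Pgk1, an X-linked glycolytic enzyme with processed copies that can share its reads, fell by 1.15 on the log2 scale. Of 27 purine and pyrimidine genes 8 rose and 9 fell. Dhodh, the mitochondrial enzyme of pyrimidine synthesis that leflunomide inhibits, was at 19.6, 18.5 and 16.8 CPM and 15.3, 15.3 and 14.8 CPM (log2 fold change -0.28 ± 0.06 (SE), adjusted p = 0.0013), and relative to the median of chromosome 8 its value was -0.01.

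Genes of adhesion to the matrix were more often higher than lower. Among 32 tested genes of integrins and focal adhesions, 19 passed upward and 5 downward, with a median of 0.27, and the median was also 0.27 after each gene's chromosome median was taken off. In gs2_F6 the median of the same genes was 0.02, and 21 of them were higher in gs1_B11 than in gs2_F6 and 7 lower. Itgb3, the beta subunit of the vitronectin receptor, rose from 0.577, 1.00 and 0.783 CPM to 6.32, 7.01 and 6.79 CPM (log2 fold change 3.07 ± 0.23 (SE), adjusted p = 1.5e-09). Itga2, a collagen receptor subunit, rose from 229, 247 and 252 CPM to 376, 386 and 427 CPM (log2 fold change 0.71 ± 0.11 (SE), adjusted p = 2.4e-05). The kindlins Fermt2 and Fermt1, which activate integrins, rose by 0.97 ± 0.06 and 0.89 ± 0.07. Itgb1, the beta subunit shared by many integrins, moved the other way, from 2094, 2131 and 2109 CPM to 1460.2, 1514 and 1623 CPM (log2 fold change -0.46 ± 0.04 (SE), adjusted p = 3.8e-08). It lies on chromosome 8, and relative to that chromosome its value was -0.19.

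Mesenchymal and matrix genes were mixed by member. Of 28 tested, 13 rose and 4 fell, with a median of 0.24. All 4 lower members, S100a4, Postn and Vim among them, were among the 11 tested on chromosomes 2, 3, 8 and X. Of the 17 tested elsewhere 0 fell. Fn1, fibronectin, rose from 895, 972 and 827 CPM to 1976, 1879 and 2048 CPM (log2 fold change 1.13 ± 0.09 (SE), adjusted p = 2.4e-09). Col12a1, a fibril-associated collagen, rose from 14.6, 14.8 and 11.5 CPM to 45.1, 45.4 and 49.1 CPM (log2 fold change 1.77 ± 0.12 (SE), adjusted p = 5.4e-10). Ccn2, a matricellular protein induced by YAP and TGF-beta, rose from 213, 247 and 259.5 CPM to 413, 439.9 and 559.9 CPM (log2 fold change 0.97 ± 0.13 (SE), adjusted p = 6.4e-06). S100a4, a calcium-binding protein linked to metastasis, fell from 614, 580.3 and 723 CPM to 276, 269 and 277 CPM (log2 fold change -1.22 ± 0.12 (SE), adjusted p = 4.9e-08), and Postn, periostin, fell by 1.26 ± 0.17. Vim, which encodes vimentin, was slightly lower (-0.22 ± 0.07, adjusted p = 0.012), a call lost without gs1_B11 replicate 1 (adjusted p = 0.06) or 2 (adjusted p = 0.057). Of the transcription factors on the list, Twist1 went from 7.12, 7.70 and 7.64 CPM to 12.9, 14.2 and 15.2 CPM and Zeb1 from 0.0481, 0.0802 and 0 CPM to 0.721, 0.488 and 0.605 CPM (adjusted p = 4.2e-08 and 0.00015). Zeb1 rests on 3 counts in the parental libraries and 43 in the clone, a ratio of 13.5 with a 95% counting interval of 4.31 to 67.9. Both genes were chosen after their values were seen.

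The epithelial junction list moved in both directions beside the lost claudins. Of 45 tested genes 20 rose and 9 fell, with a median of 0.20. Epcam, the epithelial adhesion molecule, rose from 184, 175 and 191 CPM to 291, 294 and 275 CPM (log2 fold change 0.64 ± 0.05 (SE), adjusted p = 1.4e-09), and Ocln, the tight junction protein occludin, rose by 0.59 ± 0.06. Dsc2, a desmosomal cadherin, rose by 0.86 ± 0.17. Cdh1, E-cadherin, was at 408, 386 and 339.8 CPM and 438, 431 and 393 CPM (0.15 ± 0.08, adjusted p = 0.1), passed the threshold under 4 of the 12 other settings, and was chosen after its values were seen. Of 10 keratins tested 5 rose and 2 fell: Krt14, a basal keratin, rose from 67.5, 69 and 54.3 CPM to 232, 214 and 156 CPM (log2 fold change 1.66 ± 0.20 (SE), adjusted p = 1.2e-06), while Krt19, a simple epithelial keratin, fell from 137, 136 and 144 CPM to 74, 77.2 and 77.3 CPM (log2 fold change -0.87 ± 0.07 (SE), adjusted p = 3.3e-09). Among 27 matrix proteases and inhibitors 8 rose and 6 fell. Mmp14, the membrane protease that activates other metalloproteases, rose from 101, 98.9 and 94.9 CPM to 204, 200.4 and 201 CPM (log2 fold change 1.04 ± 0.05 (SE), adjusted p = 1.3e-12). The X-linked inhibitor Timp1 fell by 0.84 and the sheddase Adam8 fell by 0.99, while Adam19 rose by 0.73 on the log2 scale.

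Ligand and growth-control pathways also held more higher than lower genes. Of 33 tested TGF-beta and BMP genes 14 rose (42.4%) and 4 fell (12.1%), with a median of 0.15. All 5 members tested on chromosomes 14 and 18 rose, and 2 of the 4 lower members fell at least 2-fold. Tgfb1, the ligand, rose from 13.1, 16.1 and 16.1 CPM to 25.4, 25.7 and 30.1 CPM (log2 fold change 0.84 ± 0.13 (SE), adjusted p = 2.3e-05). Bmp1, a procollagen protease, rose by 0.78 ± 0.05, and the inhibitory Smad7 rose by 0.59 ± 0.08. Of 24 Hippo pathway genes and YAP targets 10 rose (41.7%) and 5 fell (20.8%), with a median of 0.11. Ajuba, a LIM protein that holds LATS kinases, rose from 107, 107 and 93.7 CPM to 201, 189.8 and 186 CPM (log2 fold change 0.91 ± 0.05 (SE), adjusted p = 6.1e-11), and the kinase Lats2 rose by 0.56 ± 0.07. Ajuba, Lats2 and Bmp1 lie on chromosome 14 and Smad7 on chromosome 18, and their values relative to those chromosomes were 0.68, 0.33, 0.54 and 0.26.

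Genes of the cell cycle were more often lower than higher, by small amounts. Of 36 tested DNA replication genes none rose past the threshold and 20 fell, with a median of -0.15. By DESeq2 0 rose, and 0 were higher at an unadjusted p below 0.05 in edgeR. On chromosomes 2, 3, 8 and X 10 of 11 fell, and elsewhere 10 of 25. E2f1, a transcription factor of S phase entry, fell from 37.3, 37.1 and 36.1 CPM to 19.6, 18.7 and 17.4 CPM (log2 fold change -0.99 ± 0.06 (SE), adjusted p = 5.3e-11), and Gins2, a part of the replicative helicase, fell from 23.7, 23.6 and 23.1 CPM to 11.8, 12.4 and 9.96 CPM (log2 fold change -1.04 ± 0.11 (SE), adjusted p = 1.6e-07). Of 31 mitosis genes 1 rose and 20 fell (median -0.18), with 8 of 8 lower on chromosomes 2, 3, 8 and X and 12 of 23 elsewhere. Ccna2, cyclin A2, fell from 454, 457 and 451 CPM to 326, 327 and 319.6 CPM (log2 fold change -0.49 ± 0.03 (SE), adjusted p = 1.7e-10). The mitotic kinase Aurka and the spindle protein Nusap1 fell by 0.50 and 0.56. All the cell cycle genes named here lie on lowered chromosomes. E2f1, Aurka and Nusap1 are on chromosome 2, Ccna2 on 3 and Gins2 on 8, with chromosome medians of -0.23, -0.24 and -0.27. In gs2_F6 the median of the mitosis list was 0.01, and 16 of its members were lower in gs1_B11 than in gs2_F6.

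**Figure D5:**
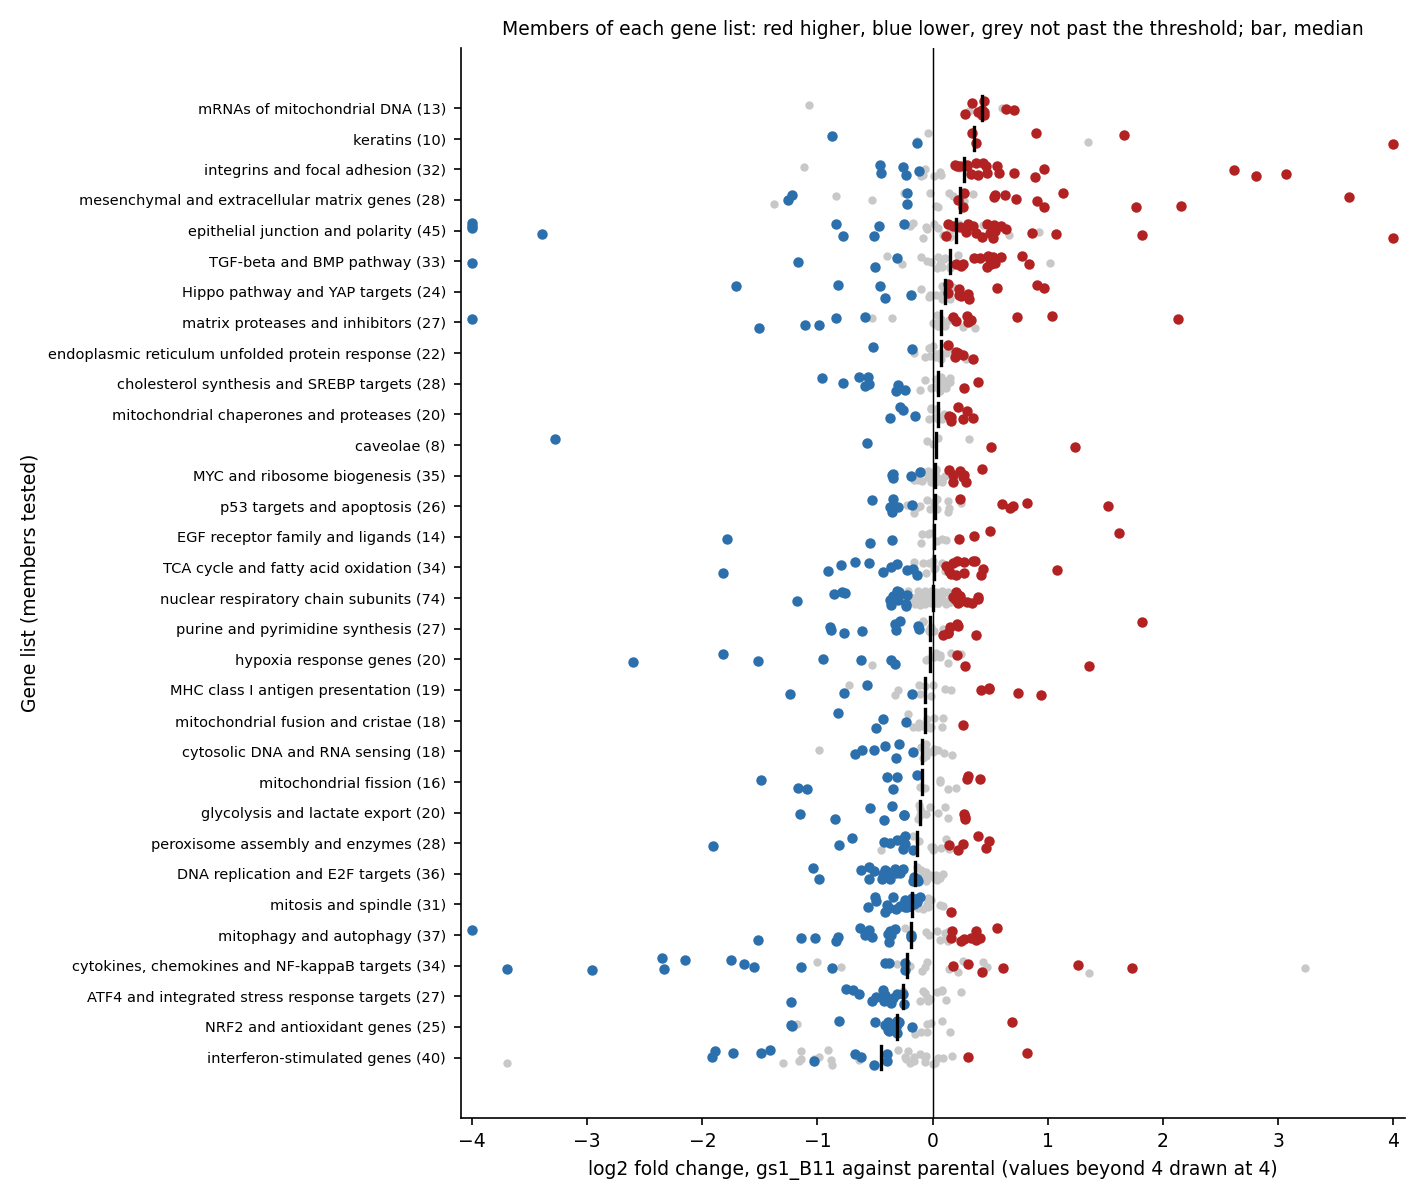
Log2 fold change of gs1_B11 against parental for each tested member of 32 gene lists, ordered by the list median (black bar); red and blue members passed the test, grey members did not, and values beyond 4 are drawn at 4. The mRNAs of mitochondrial DNA have the highest median (0.43) and the interferon-stimulated genes the lowest (-0.45), and each list spreads on both sides of its median.

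ATF4 targets and NRF2 genes were more often lower than higher. Of 27 targets of ATF4, the factor of the integrated stress response, none rose past the threshold and 14 fell (median -0.26). DESeq2 also called 0 of them higher, and 0 were higher at an unadjusted p below 0.05 in edgeR. On chromosomes 2, 3, 8 and X 6 of 8 fell, and elsewhere 8 of 19. Slc7a5, a transporter of large amino acids, fell from 113, 122 and 102 CPM to 76.5, 70.3 and 62.4 CPM (log2 fold change -0.69 ± 0.07 (SE), adjusted p = 2.5e-07), and Chac1, which degrades glutathione, fell from 3.32, 5.21 and 8.15 CPM to 1.65, 2.03 and 3.49 CPM (log2 fold change -1.23 ± 0.36 (SE), adjusted p = 0.0072). The Chac1 groups overlapped, and without parental replicate 3 its log2 fold change was -0.86 (adjusted p = 0.066). Phgdh, which begins serine synthesis, and Atf5, a stress transcription factor, fell by 0.49 and 0.53. Of 25 NRF2 and antioxidant genes 1 rose and 16 fell (median -0.31, and -0.17 with chromosome medians taken off). On the 4 lowered chromosomes 8 of 10 fell, and elsewhere 8 of 15. Nqo1, a quinone reductase, fell from 15.5, 15.2 and 11.8 CPM to 5.47, 7.35 and 5.35 CPM (log2 fold change -1.22 ± 0.14 (SE), adjusted p = 5.5e-07), and Gsta4, a glutathione transferase, fell from 34.6, 31.2 and 29.9 CPM to 14.2, 14.6 and 11.7 CPM (log2 fold change -1.23 ± 0.22 (SE), adjusted p = 0.00013). Gclc, the rate-limiting enzyme of glutathione synthesis, was the member that rose, from 49.4, 46.6 and 47.4 CPM to 76.5, 77.7 and 77.4 CPM (log2 fold change 0.69 ± 0.05 (SE), adjusted p = 4.3e-10). Among 20 hypoxia response genes 3 rose (15%) and 7 fell (35%), with a median of -0.02. Car9, a carbonic anhydrase, fell from 6.35, 5.41 and 5.20 CPM to 1.02, 0.750 and 1.02 CPM (log2 fold change -2.60 ± 0.35 (SE), adjusted p = 4.1e-06), and P4ha2, a collagen prolyl hydroxylase, rose by 1.36 ± 0.14.

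Of 40 tested interferon-stimulated genes 2 rose (5%) and 11 fell (27.5%, near the 25.9% of all genes tested), and 27 did not pass the test. Their median was -0.45 with a wide spread, and 9 of the 40 had a parental mean below 1 CPM. The members named passed the test at 5 CPM or more in 1 of the groups. Ifit2 fell from 11.1, 9.06 and 10.8 CPM to 3.52, 2.40 and 2.42 CPM (log2 fold change -1.89 ± 0.19 (SE), adjusted p = 9.2e-08), and Bst2, tetherin, fell from 12.9, 13 and 13.2 CPM to 4.88, 5.51 and 4.23 CPM (log2 fold change -1.41 ± 0.22 (SE), adjusted p = 2.4e-05). Oasl1 fell by 1.03 ± 0.23. Ifit2, Bst2 and Oasl1 had log2 fold changes of -3.63, -0.64 and -2.17 in gs2_F6. Of 34 cytokines, chemokines and NF-kappaB targets 6 rose and 14 fell (median -0.22). The neutrophil chemokine Cxcl3 fell from 19, 19.4 and 26.3 CPM to 1.40, 1.16 and 2.51 CPM (log2 fold change -3.70 ± 0.30 (SE), adjusted p = 5.8e-09). Cxcl5, of the same family, fell from 124, 126 and 139 CPM to 37.2, 39.1 and 56.6 CPM (log2 fold change -1.55 ± 0.27 (SE), adjusted p = 7.8e-05), and was at 247, 197 and 190.2 CPM in gs2_F6. Vcam1, a leukocyte adhesion molecule, fell by 1.75 ± 0.12 and Csf1, the macrophage growth factor, fell by 1.14 ± 0.12. Cxcl3, Vcam1 and Csf1 had log2 fold changes of -1.64, -2.23 and -0.32 in gs2_F6. Among the 6 members that rose in gs1_B11 were Nfkbiz, by 0.61 ± 0.13, and Cxcl16, by 0.43 ± 0.10. Of 19 genes of class I antigen presentation 5 rose and 4 fell. H2-K1 and H2-D1, class I heavy chains with shared sequence, rose by 0.74 and 0.49, and Psme1, a proteasome activator on chromosome 14, rose by 0.94. Psmb10, one of the 4 lower members, fell by 0.57 ± 0.16.

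Further lists held genes that rose and genes that fell. Of 20 mitochondrial chaperones and proteases 7 rose (35%) and 4 fell (20%), with a median of 0.05. Hspa9, the main chaperone of the matrix, was at 1042, 1023 and 1086 CPM in parental cells and 1298, 1324 and 1385 CPM in the clone (log2 fold change 0.35 ± 0.04 (SE), adjusted p = 1.1e-06), which is 0.02 above the median of chromosome 18. In the unfolded protein response list (endoplasmic reticulum) 22 genes were tested, of which 6 rose (27.3%) and 2 fell (9.09%), with a median of 0.07. Of 28 cholesterol synthesis genes 2 rose (7.14%) and 9 fell (32.1%), and the median of 0.05 became -0.03 once chromosome medians were taken off. Among the 28, the X-linked Nsdhl, a sterol dehydrogenase, fell from 80, 79.5 and 92.5 CPM to 41.9, 46.2 and 41.4 CPM (log2 fold change -0.96 ± 0.10 (SE), adjusted p = 1e-07). Of 35 MYC and ribosome biogenesis genes 8 rose (22.9%) and 5 fell (14.3%; median 0.02, and -0.01 with chromosome medians taken off). Of 26 p53 targets and apoptosis genes 6 rose and 6 fell: Tnfrsf10b, a death receptor, rose from 41.4, 44.9 and 45.7 CPM to 69, 70.7 and 74.9 CPM (log2 fold change 0.70 ± 0.06 (SE), adjusted p = 2.5e-08).

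Of 18 sensors of cytosolic DNA and RNA none rose and 7 fell (median -0.09). Those that fell were 5 of 6 tested on chromosomes 2, 3, 8 and X and 2 of 12 elsewhere. Of all tested genes elsewhere 17.9% fell. Unadjusted edgeR p below 0.05 and DESeq2 gave 0.0 and 0.0 higher. Mavs, the mitochondrial adaptor of RNA sensing, fell from 27.1, 28.8 and 25.1 CPM to 18, 17.7 and 17.4 CPM (log2 fold change -0.61 ± 0.06 (SE), adjusted p = 1.1e-07), and the groups did not overlap. Mavs lies on chromosome 2, which had a median of -0.23. Of 14 genes of EGF receptor signalling 4 rose and 3 fell. Spry4, a feedback inhibitor of receptor kinases, rose from 3.56, 4.21 and 3.50 CPM to 9.92, 11.5 and 13.3 CPM (log2 fold change 1.62 ± 0.16 (SE), adjusted p = 1.1e-07), and Egfr itself fell from 6.73, 6.53 and 5.53 CPM to 3.82, 4.05 and 5.12 CPM (log2 fold change -0.54 ± 0.13 (SE), adjusted p = 0.002). Of 8 genes of caveolae 2 rose and 2 fell. Cav1, the coat protein caveolin, rose from 45.2, 46.1 and 40.1 CPM to 108, 109 and 94 CPM (log2 fold change 1.24 ± 0.11 (SE), adjusted p = 1.2e-08), and Ehd2, an ATPase at the caveolar neck, fell from 157, 152 and 134 CPM to 107, 105 and 85.9 CPM (log2 fold change -0.57 ± 0.09 (SE), adjusted p = 1.9e-05).

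The 2 Fis1 clones differed from each other about as widely as gs1_B11 differed from parental cells. Of the 13941 genes, 3436 were higher in gs1_B11 than in gs2_F6 (24.6%) and 3193 lower (22.9%), 47.6% in all. Of the 6592 genes called between gs1_B11 and parental cells, 4598 also differed between the clones, and 1994 did not pass that test. The 2 tests share the gs1_B11 libraries. Lncenc1, a long noncoding RNA, was at 58.6, 59 and 53.4 CPM in parental cells, 9.75, 10.1 and 8.89 CPM in gs1_B11 and 247, 246 and 261 CPM in gs2_F6, so the clones lay on opposite sides of parental. C3, a complement component, was at 15, 12.8 and 11.8 CPM, 8.14, 5.66 and 6.61 CPM and 53.6, 48 and 44 CPM in the same order. Moxd1, a monooxygenase-like protein, was at 31.8, 35.2 and 33.3 CPM, 63.1, 68.1 and 67.3 CPM and 1.04, 1.30 and 1.45 CPM. Marcks, an actin-linked substrate of protein kinase C, was at 10.4, 8.82 and 7.23 CPM in parental cells, 25.9, 26.1 and 22.3 CPM in gs1_B11 and 0.0415, 0.0978 and 0.128 CPM in gs2_F6. In each of these 4 genes the 3 groups did not overlap.

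Some genes set gs1_B11 apart from parental cells and from each of the other 5 clones. The criterion was a call of the same sign in all 6 comparisons, which share the gs1_B11 libraries. It was met by 378 higher genes (2.71% of those tested) and 423 lower genes (3.03%). Of the higher genes 68 lay on chromosome 18 (382 genes tested), 62 on chromosome 14 (500 tested), 56 on chromosome 9 (781 tested) and 0 on X (421 tested). Of the lower genes 109 lay on chromosome 2 (1090 tested), 55 on X, 38 on chromosome 3 (705 tested) and 0 on chromosome 18. At least a 2-fold difference in all 6 comparisons was found for 14 higher and 50 lower genes.

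Among the higher genes of this kind, Foxn3, a forkhead repressor, was at 19.7, 20.6 and 18 CPM in parental cells and 35, 33.7 and 41.4 CPM in gs1_B11 (log2 fold change 0.92 ± 0.11 (SE), adjusted p = 1.7e-06), with means of 20.2 to 21.6 CPM in the other 5 clones. Gpsm3, a regulator of G protein signalling, was at 9.33, 10.1 and 10.7 CPM and 21.2, 22 and 20 CPM (log2 fold change 1.07 ± 0.09 (SE), adjusted p = 1.5e-08), with 3.23 to 12.5 CPM in the other clones. Mcam reached 20.3, 20.5 and 17.2 CPM against 2.93 to 11.5 CPM elsewhere, and Krt17 5.81, 5.40 and 5.26 CPM against 0.597 to 2.17 CPM. Dok7, an adaptor of a muscle receptor kinase, and Sh2d4a met the criterion with log2 fold changes of 1.94 and 0.93 against parental cells.

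Among the lower genes set apart, Eif5a2, a translation factor, was at 18.4, 16.9 and 14.5 CPM in parental cells and 2.63, 2.89 and 1.81 CPM in gs1_B11 (log2 fold change -2.75 ± 0.13 (SE), adjusted p = 1.6e-12), and its means in the other clones were 7.50 to 12.3 CPM. Mettl7b, a methyltransferase-like protein, was at 10.9, 11.3 and 13.3 CPM and 1.82, 1.80 and 1.95 CPM (log2 fold change -2.67 ± 0.13 (SE), adjusted p = 2.9e-12), with 5.62 to 10.8 CPM in the other clones. Maged2, an X-linked MAGE family protein, was at 7.31, 7.54 and 8.52 CPM and 2.46, 1.95 and 2.00 CPM (log2 fold change -1.86 ± 0.18 (SE), adjusted p = 5.7e-08), with 7.58 to 11.8 CPM elsewhere. Cbr1, a carbonyl reductase, fell by 2.35 ± 0.16, Eya2, a phosphatase and transcription cofactor, fell by 2.10 ± 0.27, and Platr16, a noncoding RNA, fell by 2.51 ± 0.20. Whether the counting used strand is not known here, so reads of noncoding and antisense neighbours may be shared. Serpinb6b, a serpin with close relatives whose reads can be shared, was at 16.8, 22.3 and 22.1 CPM in parental cells, 6.40, 6.15 and 8.42 CPM in gs1_B11 and 99.7, 101 and 112 CPM in gs2_F6.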

How the data were processed

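Polyadenylated RNA of cultured 4T1 cells was sequenced. The authors deposited expected counts per gene from RSEM for 27 libraries (GRCm38 gene models; reads trimmed with Trimmomatic 0.35), per the submitters' processing notes. RSEM version, aligner and strand setting: not given in the sources used here. Expected counts were rounded, and genes were filtered with filterByExpr over the 21 parental and knockout libraries, leaving 13941 of 55401. edgeR 4.0.16 (R 4.3.3) was fitted with TMM scaling and 1 coefficient per group, and its quasi-likelihood test was adjusted by Benjamini-Hochberg at 0.05. The SE was derived from the fold change and F. CPM values use each library's total over the tested genes multiplied by its TMM factor. Blocks hold 25 tested genes. The fit was tested on simulated data. Alternatives were DESeq2 1.42.0, its size factors, no filter, the 2 groups alone, no ribosomal RNA genes, a replicate block and leaving out each library. Genes were named by rank at 5 CPM or more in 1 group, as mitochondrial dynamics genes, or as up to 4 called members per list and direction. Members and lists were chosen with earlier results of these data known. Arntl2, Cdh1, Mtfp1, Tm7sf3, Twist1, Zeb1 and mt-Co3 fall outside that rule. The 6 leflunomide and DMSO libraries were not used.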

Additional observations from a re-analysis of the deposited data

Results flagged for a closer look

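For 738 of the 13941 genes tested, the Fis1 clones gs1_B11 and gs2_F6 carried opposite calls against the same parental libraries. The 738 were also required to differ in the direct test between the clones (edgeR, adjusted p of 0.05). That test uses the same clone libraries and adds no independent evidence. Of the 738 genes, 345 were higher in gs1_B11 and lower in gs2_F6, and 393 the reverse. In 66 genes both differences were at least 2-fold.

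Among named genes the log2 difference of gs1_B11 from gs2_F6 was 8.65 for Slc27a6, 6.70 for Sema6a, 8.04 for Marcks and 8.57 for Eomes, a T-box transcription factor. It was 10.6 for Arhgap28 and 10.36 for Dmd, which encodes dystrophin. Arhgap28 and Dmd had 0 counts in gs2_F6, so their fitted differences depend on the prior count and are no bounds. Slc27a6 and Marcks were at a trace in gs2_F6, so the sizes of their differences rest on few counts there and are imprecise. On the other side the difference was -8.03 for Ubqln2, -4.71 for Lncenc1, -3.91 for Serpinb6b, -3.78 for Bcl2l15, -3.02 for Gsta1 and -2.84 for C3. Gsta1 and Serpinb6b have close relatives that can share reads. The Eomes call against parental cells was lost without parental replicate 1 (0.25, adjusted p = 0.083) or gs1_B11 replicate 2 (0.29, adjusted p = 0.063). The cause of these differences between clones was not tested.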

How the results depend on the processing

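Each count of calls over all genes stayed within 1.5 times its reported value under the 12 planned settings. Leaving out 1 library gave 2726 to 2930 genes higher than parental and 3137 to 3371 genes lower than parental. Fis1 against parental then ranged from -1.21 to -1.10 on the log2 scale. Replicate numbers follow the serial order of the columns, and same-numbered libraries correlated at 0.06, 0.10 and 0.15, so the numbers were not taken as pairs. With the number as a replicate block there were 3231 genes higher than parental and 3822 genes lower than parental, and Fis1 against parental was -1.17. Outside chromosomes 2, 3, 8, 14, 18, X and mitochondrial DNA, a restriction chosen after seeing the data, there were 1911 genes lower than parental and 2307 genes higher than parental among the 10088 tested there. Taking off chromosome medians, also chosen afterwards, turned the median of cholesterol synthesis and SREBP targets to -0.03 and the median of MYC and ribosome biogenesis to -0.01. Leaving out 1 library, Mfn2 against parental ranged from -0.13 to 0.00, the latter without gs1_B11 replicate 3. The median of chromosome 6 was 0.01 without ribosomal RNA genes. Of 147 named genes, 138 kept their direction and side of the threshold in all 12 settings. Without the low-count filter the median prior degrees of freedom in edgeR became infinite, against 5.45 with it, so that fit's p-values do not reflect each gene's own spread, and mt-Co3 against parental had an adjusted p of 8.4e-75.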
